A study of Homo sapiens with 30 samples.

Results

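Wnt ligands, their Frizzled (FZD) receptors and LRP5/LRP6 co-receptors, and the secreted SFRP and DKK families were followed in Rh30 cells, an established line of alveolar rhabdomyosarcoma in which PAX3 is fused to FOXO1. Members were taken by gene symbol: all numbered WNT, FZD, SFRP and DKK genes, plus LRP5, LRP6 and AXIN2. The tables hold 40 such genes among 23262, and the 26 with at least 10 counts in any column are described: 10 ligands, 8 receptors, 2 co-receptors, 2 SFRP and 3 DKK genes, and AXIN2. The other 14 stayed under 10 counts in every column, namely WNT1, WNT2, WNT3A, WNT7A, WNT7B, WNT8A, WNT8B, WNT9B, WNT16, FZD9, FZD10, SFRP2, SFRP5 and DKK4.

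RNA sequencing covered 30 samples in 15 groups of 2. A degradation tag (FKBP) was carried by PAX3-FOXO1 in 1 line and by wild-type FOXO1 in another, and the small molecule dTAG directs a tagged protein to the proteasome. Each of these lines was kept in DMSO or in 500 nM dTAG for 2, 6, 24 or 72 h, which asks what RNA follows when the fusion is degraded, with the FOXO1-FKBP line answering for the compound and for tagged FOXO1. The other 10 libraries came from parental Rh30 and from PAX3-FOXO1-FKBP clones 4, 10, 11 and 12, all labelled DMSO, so that each clone carries the tag and none was given dTAG. A general protocol entry reads DMSO for all 30 samples, and the sample-level treatment entries are used here. Every tagged clone derives from Rh30, and the sources used here do not say whether the time-course line is any of clones 4, 10, 11 and 12 or whether replicates were grown as separate cultures. The clone p-values then measure only how far these libraries spread, and that spread may be technical. No protein was measured.

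Wnt proteins are secreted, lipid-modified ligands that bind FZD receptors. With LRP5 or LRP6 as co-receptor, a ligand can stabilise beta-catenin, which works with TCF/LEF factors on target genes such as AXIN2. Other ligands, WNT5A, WNT5B and WNT11 among them, are best known for beta-catenin-independent signalling that acts on cell polarity and movement. SFRP proteins bind Wnts outside the cell, and DKK1, DKK2 and DKK4 bind LRP5/6. In the embryo, Wnts from the neural tube and surface ectoderm help to start the muscle programme of the somite.

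Column totals over the genes used were 27561190 to 30466522 estimated counts in the PAX3-FOXO1-FKBP time course, 25863153 to 27380825 in the FOXO1-FKBP time course and 17746684 to 26834005 reads in the clone libraries. Each time-course column pools both samples of a condition, so its values have no replicate error. The rhabdomyosarcoma and myoblast list had 9 of its 11 genes at 10 or more counts in every column. A list of 16 B lineage and leukocyte genes stood apart in the 2 h column of the PAX3-FOXO1-FKBP line, with a summed level of 99.9 CPM (counts per 1000000 after scaling) and 15 genes at 10 or more counts, against 12.1 to 23.3 CPM and 2 or 3 genes in the other columns of that line. The clone and parental libraries summed to 21.0 to 110 CPM, highest in clone 11 replicate 2, but with only 2 to 4 genes at 10 or more counts. PAX3 mRNA, which includes the fusion's PAX3 part, went from 27.2 CPM in DMSO to 13.9 to 17.2 CPM under dTAG in the PAX3-FOXO1-FKBP line and lay at 17.8 to 25.8 CPM in the FOXO1-FKBP line. The compound acts on protein, so this does not check the labels.

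Among the ligands, WNT5B was the most abundant per transcript length. Per kilobase of transcript, its level was 24.4 and 25.2 CPM in the parental libraries, 37.0 CPM in the DMSO column of the PAX3-FOXO1-FKBP line and 43.3 CPM in that of the FOXO1-FKBP line. WNT5A came next among the ligands in all 3, at 9.46 CPM per kilobase in parental cells (mean of 2), 11.8 in the PAX3-FOXO1-FKBP line and 13.5 in the FOXO1-FKBP line. The ligands best known for signalling through beta-catenin were lower: WNT3 had 1.12, 1.97 and 1.10 CPM per kilobase, WNT10B 1.87, 1.79 and 5.58, and WNT1 and WNT3A stayed under 10 counts.

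LRP5 was the most abundant receptor component on the same scale. It had 28.6 CPM per kilobase in parental cells, 27.96 in the PAX3-FOXO1-FKBP line and 30.6 in the FOXO1-FKBP line, against 3.07, 4.91 and 5.92 for LRP6. FZD2 led the FZD family, at 16.7, 27.8 and 22.6 CPM per kilobase. FZD8 at 11.8 and FZD1 at 6.69 CPM per kilobase followed in parental cells, where FZD3, FZD5 and FZD6 were all under 1 CPM per kilobase. LRP5L, a partial copy of LRP5, has its own entry at 7.80 to 25.2 CPM, so reads of the pair may have been split.

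**Figure D1:**
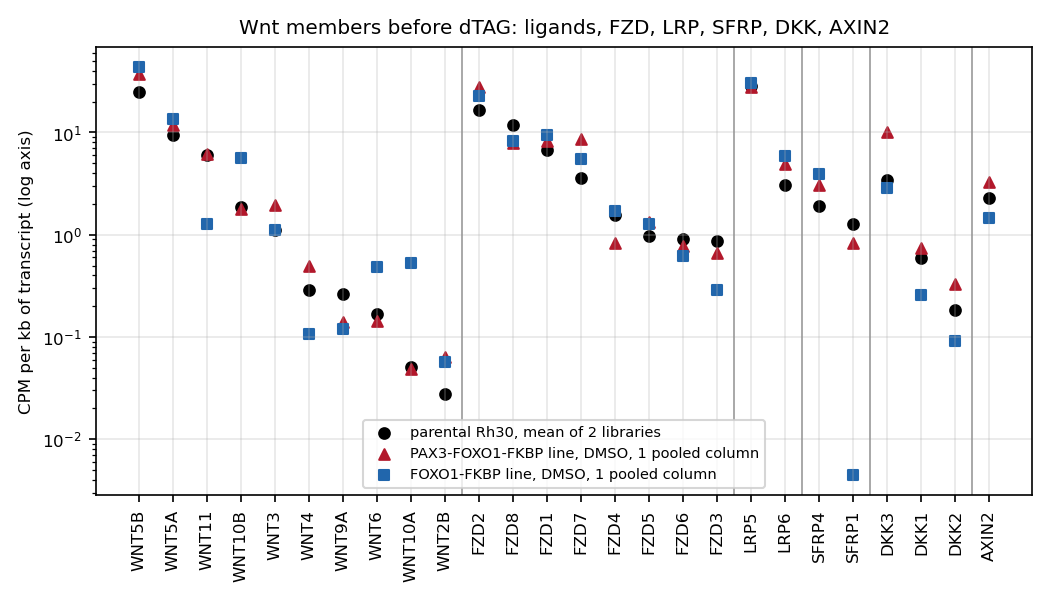
Levels of the 26 members before dTAG, in CPM per kilobase of transcript on a log axis, with vertical lines between ligands, FZD receptors, co-receptors, SFRP genes, DKK genes and AXIN2. Black circles are the parental mean of 2 libraries, red triangles and blue squares the pooled DMSO columns. WNT5B, FZD2 and LRP5 lie highest in their groups, and SFRP1 is near 0 in the FOXO1-FKBP line alone among these 3.

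Under dTAG, WNT5B and WNT11 mRNA fell and WNT9A mRNA rose in the PAX3-FOXO1-FKBP line. These were the 3 of 26 members tested with a slope over time that passed the edgeR quasi-likelihood test (2 down, 1 up), where 4.54% of all 14251 genes passed. By DESeq2 more members passed in this line, as given in the last section. Slopes are straight lines on log2(hours + 1). The median fitted change over 0 to 72 h was -0.01 (log2) for the members and 0.01 for all genes. With FOXO1 tagged, 0 of 25 members passed by edgeR or by DESeq2, where 0% of 13885 genes passed by edgeR, while at an unadjusted p under 0.05 edgeR listed 640 genes, WNT5A the only member among them. The difference in slope between the lines passed for 2 of 26 members, WNT5B and WNT11, against 2.02% of 14502 genes. All slopes of a line share its DMSO column, and these p-values reflect how far pooled columns lie from a line and hold no replicate error.

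By size alone, and with no test, the number of members at least 2-fold away from DMSO in the PAX3-FOXO1-FKBP line was 1 of 21 at 2 h, 1 at 6 h, 3 at 24 h and 5 at 72 h, counting genes with a mean of at least 50 normalised counts. The shares of all 12330 genes past the same rule were 0.649%, 1.84%, 3.11% and 6.46%. For the FOXO1-FKBP line it was 0 of 18 members at each time, where the shares of 11980 genes were 0.0751%, 0.0584%, 0.209% and 0.409%. WNT4 and WNT9A lay under the minimum mean in that line and were not among its 18.

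WNT5B, which acts mostly through beta-catenin-independent signalling, stood at 85.2 CPM in DMSO and at 50.7, 45.8, 34.4 and 27.0 CPM after 2, 6, 24 and 72 h of dTAG when the fusion carried the tag. Each column lay below the one before it, and the largest single step was the first. That step ends at the 2 h column, the one with the leukocyte genes. In the FOXO1-FKBP line, normalised apart, the same gene stood at 99.8 CPM in DMSO and 82.7, 87.5, 83.0 and 97.2 CPM under dTAG, all above every treated column of the other line. Its fitted change over 72 h was -1.57 ± 0.17 (log2, SE; edgeR adjusted p 0.00311) with the fusion tagged and -0.03 ± 0.15 (adjusted p 0.978) with FOXO1 tagged. WNT5B fell more steeply in the PAX3-FOXO1-FKBP line, by a difference in slope of -1.55 ± 0.24 (edgeR adjusted p 0.00825), and without the 72 h columns this difference had an adjusted p of 0.144. In RNA from whole cultures, fewer cells that make a transcript and less of it per cell cannot be told apart. Over the same columns the summed level of 15 muscle differentiation genes went from 2499 CPM in DMSO to 3950, 4192, 6196 and 11570 CPM, against 1877 to 2243 CPM in the FOXO1-FKBP line, and its part in the WNT5B and WNT11 results was not tested.

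WNT5B and WNT9A are the members with a called slope that have promoter entries in RefSeq (build GRCh38.p14), so the 250 bases before their start sites are shown. Capitals mark exact matches, on either strand, to CAGCTG, an E-box that muscle regulatory factors such as MYOD1 can bind, to GTCAC, a core of paired-domain binding sites, or to CTTTGA, the core of TCF/LEF sites. No 2 of these motifs overlap in the sequences shown.
WNT5B, chr12:1616806-1617055, plus strand: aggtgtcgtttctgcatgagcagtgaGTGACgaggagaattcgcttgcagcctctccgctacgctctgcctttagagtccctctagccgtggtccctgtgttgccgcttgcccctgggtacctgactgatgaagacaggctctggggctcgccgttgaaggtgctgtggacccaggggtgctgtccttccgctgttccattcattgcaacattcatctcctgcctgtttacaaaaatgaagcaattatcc
WNT5B, second start, chr12:1628981-1629230, plus strand: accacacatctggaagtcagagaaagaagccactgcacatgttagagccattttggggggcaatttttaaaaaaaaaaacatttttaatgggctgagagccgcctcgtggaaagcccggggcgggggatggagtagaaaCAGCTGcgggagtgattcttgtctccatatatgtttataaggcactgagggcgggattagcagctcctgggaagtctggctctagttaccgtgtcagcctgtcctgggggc
WNT9A, chr1:227947933-227948182, minus strand: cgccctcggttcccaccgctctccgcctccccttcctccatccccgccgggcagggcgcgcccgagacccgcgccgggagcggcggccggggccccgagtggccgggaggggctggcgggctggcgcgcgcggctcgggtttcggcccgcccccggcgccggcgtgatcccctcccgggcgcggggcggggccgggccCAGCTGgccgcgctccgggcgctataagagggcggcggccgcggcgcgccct
The first WNT5B promoter holds GTCAC in reverse orientation 224 bases before its start, the second holds CAGCTG 111 bases before, and WNT9A holds CAGCTG 52 bases before. Of 35116 promoters of this length, 14% hold CAGCTG, 37.3% GTCAC and 11.2% CTTTGA. Of the 15 described members with an entry, CAGCTG was found in 4, GTCAC in 3 and CTTTGA in 1, DKK1. A member counts here if any of its promoters matches, and WNT2B, WNT5A and WNT5B have 2 each. The shares above are per promoter, so the 2 are not on the same unit. A match is a description of letters, not of a bound site.

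WNT11, another ligand of beta-catenin-independent signalling, stood at 11.8 CPM in DMSO and at 11.2, 8.64, 4.59 and 3.46 CPM after 2, 6, 24 and 72 h in the PAX3-FOXO1-FKBP line. The 2 h column was close to DMSO and the lower levels came from 6 h on. In the FOXO1-FKBP line WNT11 was already low, at 2.49 CPM in DMSO and 2.47, 2.97, 2.03 and 2.52 CPM under dTAG. WNT11 fell in the first line, with a fitted change of -1.94 ± 0.27 (log2 over 72 h, SE; edgeR adjusted p 0.00757), and stood at -0.12 ± 0.28 in the second (adjusted p 0.955). The difference in slope was -1.83 ± 0.40 (edgeR adjusted p 0.0448). Without the 72 h column the slope in the first line had an adjusted p of 0.111. The difference missed the threshold without the 2 h, 6 h or 72 h columns (adjusted p 0.178, 0.0738 and 0.588) and with the order of columns in place of hours (0.0524).

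WNT9A, a ligand known from joint and limb development, was scarce in DMSO and higher at every time under dTAG in the PAX3-FOXO1-FKBP line. The level was 0.560 CPM in DMSO, on 16.8 estimated counts, and 1.22, 1.90, 3.0 and 2.62 CPM under dTAG, on 36.8, 53.5, 83.5 and 73.05 counts. When FOXO1 carried the tag it stayed between 0.364 and 0.620 CPM in all 5 columns. WNT9A rose with a fitted change of 2.13 ± 0.47 (log2 over 72 h, SE; edgeR adjusted p 0.0463). Without the 2 h column, the one with the leukocyte genes, the adjusted p was 0.0699. It was 0.0593 without the 6 h column, 0.0572 without the 72 h column and 0.0558 with library totals as the scale. The difference in slope between the lines was 1.94 ± 0.75 and did not pass (edgeR adjusted p 0.295).

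WNT3, a ligand that signals through beta-catenin, stood at 6.59 CPM in DMSO and 4.05, 3.32, 4.47 and 2.01 CPM under dTAG in the PAX3-FOXO1-FKBP line. All treated columns lay below DMSO, with the 24 h column above the 6 h column. The log2 change was -1.68 at 72 h and its slope of -1.24 ± 0.40 missed the threshold (edgeR adjusted p 0.149). With FOXO1 tagged, WNT3 stood at 3.70, 3.77, 3.44, 5.75 and 3.09 CPM, highest at 24 h.

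WNT4, a ligand with roles in kidney and gonad formation, stood at 1.90 CPM in DMSO and at 1.80, 2.59, 3.74 and 4.0 CPM under dTAG in the PAX3-FOXO1-FKBP line. The 24 h and 72 h columns were the highest, with a log2 change of 1.05 at 72 h, and the slope of 1.28 ± 0.30 missed the threshold (edgeR adjusted p 0.0558). The FOXO1-FKBP line held 0.414 to 0.757 CPM. With library totals as the scale the WNT4 change at 72 h was 0.95, under 2-fold.

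WNT5A, a close relative of WNT5B, had no called slope in either line. Its levels were 72.6, 61.6, 67.6, 62.5 and 50.4 CPM in the PAX3-FOXO1-FKBP line and 83.2, 77.5, 76.6, 75.8 and 63.8 CPM in the FOXO1-FKBP line, lowest at 72 h in both. The slopes were -0.42 ± 0.16 and -0.32 ± 0.12 (edgeR adjusted p 0.234 and 0.863), and the difference between them was -0.11 ± 0.19 (adjusted p 0.909).

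The other ligands gave no slope called by edgeR. WNT10B held 3.69 to 5.09 CPM in the PAX3-FOXO1-FKBP line and 10.2 to 12.9 CPM in the FOXO1-FKBP line. WNT6 had 7.25 counts in DMSO and 19.8 to 45.1 counts under dTAG in the PAX3-FOXO1-FKBP line (slope 1.68 ± 0.77, edgeR adjusted p 0.327). WNT10A, the neighbour of WNT6 on chromosome 2, had 3.73 counts in DMSO and 6.25 to 18.1 under dTAG (slope 1.94 ± 0.69, adjusted p 0.198). Both are too thinly counted for their fitted changes to be precise, and WNT2B held 20.2 to 34.1 counts in the same line.

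**Figure D2:**
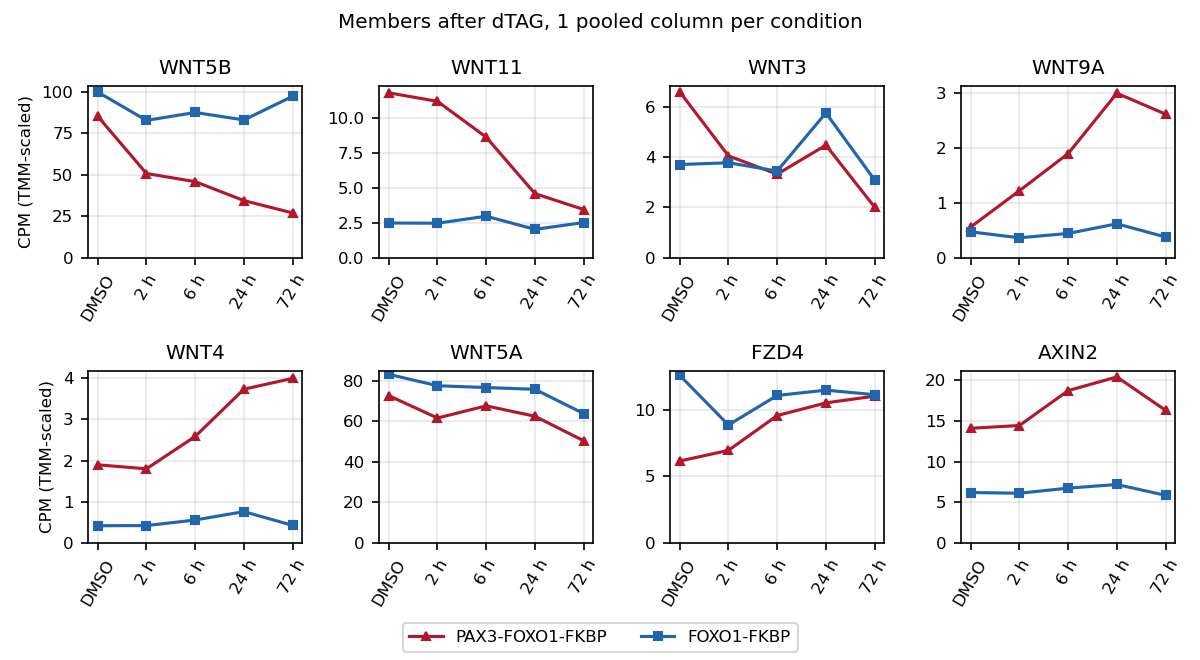
CPM on linear axes that start at 0 for 8 members in DMSO and after 2, 6, 24 and 72 h of dTAG, 1 pooled column per point and times evenly spaced. Red triangles are the PAX3-FOXO1-FKBP line and blue squares the FOXO1-FKBP line. WNT5B goes from 85.2 to 27.0 CPM and WNT11 from 11.8 to 3.46 CPM in the first line, WNT9A ends at 2.62 CPM from 0.560, and AXIN2 stays between 14.1 and 20.4 CPM.

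None of the 8 FZD receptors passed the edgeR slope test in either line. FZD4, which also serves the ligand norrin, came closest, at 6.16 CPM in DMSO and 6.96, 9.58, 10.5 and 11.1 CPM under dTAG in the PAX3-FOXO1-FKBP line. Each column exceeded the one before it (slope 0.90 ± 0.21, edgeR adjusted p 0.0551), while the FOXO1-FKBP line held 12.6 CPM in DMSO and 8.87 to 11.5 CPM under dTAG. In the PAX3-FOXO1-FKBP line FZD2 stood at 58.7, 59.7, 80.3, 78.8 and 85.5 CPM (slope 0.58 ± 0.17, adjusted p 0.105) and FZD8 at 31.9, 24.2, 33.0, 43.7 and 39.5 CPM (slope 0.57 ± 0.24, adjusted p 0.267). The differences in slope between the lines had edgeR adjusted p of 0.209 for FZD4, 0.529 for FZD2 and 0.563 for FZD8. FZD1, FZD3, FZD5, FZD6 and FZD7 had fitted changes between -0.42 and 0.11 (log2) in the PAX3-FOXO1-FKBP line.

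The co-receptors LRP5 and LRP6 were highest at 24 h in both lines. LRP5 stood at 144, 104, 130, 169 and 99.0 CPM in the PAX3-FOXO1-FKBP line and at 158, 145, 136, 214 and 143 CPM in the FOXO1-FKBP line, highest at 24 h in each. LRP6 stood at 49.2, 44.5, 53.2, 54.3 and 46.0 CPM and at 59.3, 56.6, 58.5, 64.2 and 48.7 CPM, again highest at 24 h. Neither had a slope called by edgeR. Across genes, changes went with transcript length: Spearman's rho was -0.31, -0.25, -0.01 and -0.28 at 2, 6, 24 and 72 h in the first line and -0.03, -0.36, 0.31 and -0.51 in the second, over 11084 and 10777 genes that share libraries. The transcripts of LRP5 and LRP6 have 5159 and 10020 bases, and the part of length in their values was not tested.

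Of the secreted inhibitors, none passed by edgeR. SFRP1 was present at 3.75, 4.81, 5.95, 5.76 and 3.19 CPM in the PAX3-FOXO1-FKBP line, on 88.7 to 167 counts. The FOXO1-FKBP line listed it at 0.523, 0, 0, 0 and 3.33 estimated counts. SFRP1 was thus near 0 in that line in DMSO as under dTAG, and its slope was not tested there. SFRP4 stood at 9.14, 12.7, 9.06, 5.91 and 6.58 CPM in the first line (slope -0.85 ± 0.33, edgeR adjusted p 0.239) and at 9.58 to 12.6 CPM in the second.

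DKK3, a divergent member of its family that is not known to act through LRP5/6 in the way of DKK1, stood at 27.0 CPM in DMSO and 30.9 to 35.7 CPM under dTAG in the PAX3-FOXO1-FKBP line, against 6.38 to 7.61 CPM in the FOXO1-FKBP line. The lines, which were normalised apart, did not overlap, and neither slope passed by edgeR. A list of 10 fibroblast markers summed to 824 to 1093 CPM in the first line and 183 to 238 CPM in the second, with 6 to 9 and 7 genes at 10 or more counts. COL3A1 made up most of the sum, with 632.5 CPM in DMSO in the first line and 159 CPM in the second, while COL1A1 was at 10.1 and 10.0 CPM and LUM at 0.146 and 2.22 CPM, so the list as a whole did not differ in 1 direction. POSTN alone was listed at 0, in 2 columns of the first line, and the part of these markers in the DKK3 levels was not tested. DKK1, the LRP5/6 antagonist, had 39.5 counts in DMSO and 23.9, 12.5, 3.90 and 14.2 counts under dTAG (slope -1.99 ± 0.72, edgeR adjusted p 0.206), and DKK2 had 35.8, 33.4, 15.3, 11.6 and 10.6 counts (slope -1.84 ± 0.47, adjusted p 0.076). Both were lowest at 24 h or 72 h and lay under the minimum mean of 50.

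AXIN2, a negative regulator of beta-catenin and one of its most general targets, stood at 14.1 CPM in DMSO and at 14.4, 18.8, 20.4 and 16.3 CPM under dTAG in the PAX3-FOXO1-FKBP line. The 6 h and 24 h columns were the highest and no column was below DMSO. The FOXO1-FKBP line, normalised apart, held AXIN2 at 6.19, 6.11, 6.73, 7.18 and 5.84 CPM, less than in any column of the other line. The slopes were 0.37 ± 0.23 and 0.03 ± 0.21 (edgeR adjusted p 0.470 and 0.986), with a difference of 0.33 ± 0.32 (adjusted p 0.788).

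**Figure D3:**
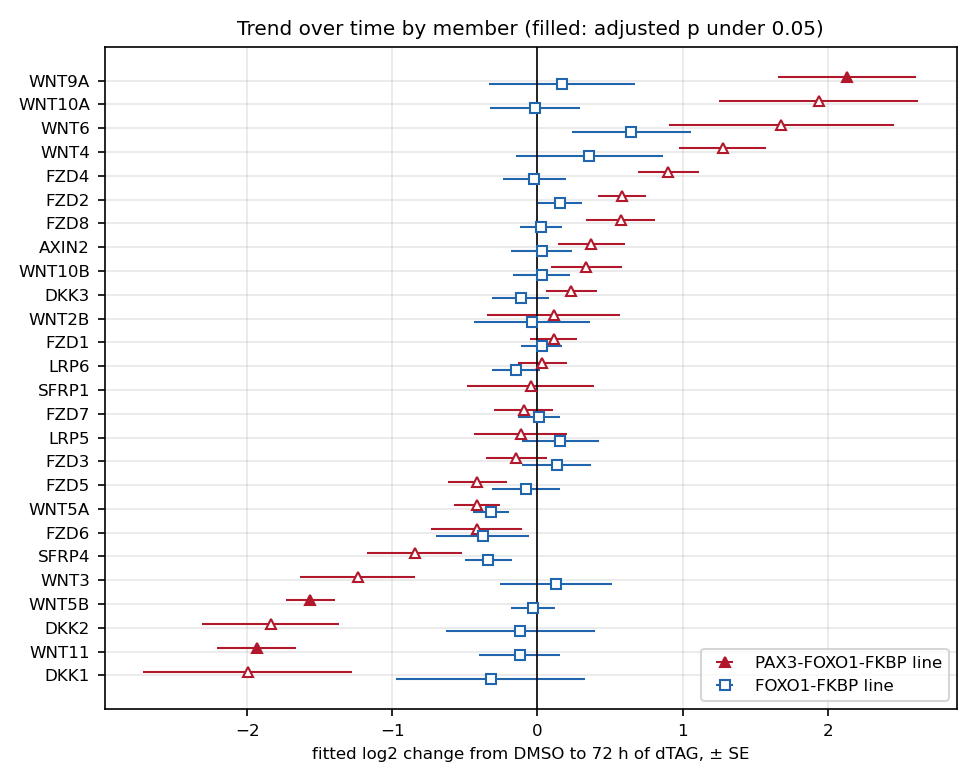
Fitted log2 change from DMSO to 72 h of dTAG with its SE for each member, by edgeR on 5 pooled columns per line, sorted by the PAX3-FOXO1-FKBP line (red triangles, FOXO1-FKBP blue squares). Filled symbols have an adjusted p under 0.05: WNT9A at 2.13, WNT5B at -1.57 and WNT11 at -1.94, all in the first line. SFRP1 has no value in the FOXO1-FKBP line.

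In the 10 libraries without dTAG, the members differed widely between parental Rh30 and its tagged clones, and so did the genes at large. Of 25 members tested (WNT2B was too low), 11 differed from parental in clone 4 (8 higher, 3 lower), where 47.4% of 14175 genes did. The count was 12 in clone 10 (7 higher, 5 lower; 52% of genes), 11 in clone 11 (5 higher, 6 lower; 51.6%) and 16 in clone 12 (8 higher, 8 lower; 52.6%). The shares of members in clones 4, 10 and 11 are near those of all genes. The 16 in clone 12 went to 12 without either parental replicate. The median log2 difference of the members was 0.04, 0.29, 0.04 and 0.19 in clones 4, 10, 11 and 12, beside 0.05, 0.05, -0.00 and 0.03 for all genes. Any difference among the 5 groups was called for 24 members, all but DKK2, against 83.1% of genes. All 4 comparisons share the same 2 parental libraries. Of the 50 calls of a member in a clone, 29 were made in every alternative run, while 15 were lost without parental replicate 1 and 18 without parental replicate 2.

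The largest fold difference among the members was in SFRP1, a secreted Wnt binder that is often silenced in tumours. Parental libraries held 147 and 177 reads, or 5.57 and 5.96 CPM, and clone 10 held 96 and 59 reads, or 4.04 and 3.08 CPM. All 6 libraries of clones 4, 11 and 12 held 0 reads. Against a floor of 3 reads per library SFRP1 was at least 37.1-fold lower in clone 4, 37.2-fold lower in clone 11 and 36.4-fold lower in clone 12 (edgeR adjusted p 5.7e-05, 9.1e-05 and 5.7e-05). The floor covers counting error only. The clone 10 difference of -0.69 (log2) did not pass (adjusted p 0.073). In the time course, the PAX3-FOXO1-FKBP line had SFRP1 reads, as parental cells and clone 10 did, and the FOXO1-FKBP line held at most 3.33.

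SFRP4, the other SFRP gene with reads, was higher in clones 4, 10 and 11. It stood at 6.03 and 5.25 CPM in parental libraries, with clone 4 at 16.2 and 19.0, clone 10 at 9.94 and 10.1, clone 11 at 21.1 and 20.3, and clone 12 at 8.78 and 6.01. All libraries of clones 4, 10 and 11 lay above both parental libraries. The differences were 1.64 ± 0.20 in clone 4, 0.83 ± 0.20 in clone 10 and 1.87 ± 0.20 in clone 11 (log2, SE; edgeR adjusted p 0.000164, 0.00575 and 0.000116). The clone 10 call was lost without parental replicate 2 (adjusted p 0.0635).

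DKK3 stood at 8.83 and 9.46 CPM in parental libraries and at 36.0 and 34.8 CPM in clone 10. It had 11.2 and 13.8 CPM in clone 4, with clone 11 at 8.83 and 19.7, and clone 12 at 14.7 and 14.8, so clone 10 stood alone at 1.95 ± 0.29 (log2, SE; edgeR adjusted p 0.000374). Fibroblast markers summed to 1184 and 1254 CPM in the clone 10 libraries, with 6 and 7 of 10 genes at 10 or more reads and only POSTN at 0, in 1 of them, and to 109 to 249 CPM in the other 8. In clone 10, 4 of the 7 tested were higher than in parental cells and 0 lower, where 52% of all genes were called. COL3A1 was higher there by 5.49 (log2; edgeR adjusted p 4.2e-06). Other clones shared some of these rises. THY1 differed by 8.85 in clone 10, 7.84 in clone 4, 8.70 in clone 12. COL1A1 differed by 2.04 in clone 10, 2.98 in clone 12, but -1.30 in clone 11. Of the 7, higher and lower calls numbered 1 and 2 (clone 4), 2 and 2 (clone 11), 3 and 1 (clone 12). The part of the fibroblast markers in the DKK3 difference was not tested. DKK1 had 32 and 27 reads in parental libraries and 1 read in each clone 12 library, a ratio of 20.1 (95% interval 5.32 to 170, counting error only; edgeR adjusted p 0.000971). Clones 4, 10 and 11 held 14 to 55 DKK1 reads and DKK2 held 6 to 22 reads in all 10 libraries.

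Among the receptors, FZD3 was lower in all 4 clones. FZD3, known for axon guidance and planar cell polarity, stood at 11.7 and 12.2 CPM in parental libraries, with clone 4 at 3.21 and 3.27, clone 10 at 3.12 and 4.95, clone 11 at 5.93 and 5.25, and clone 12 at 2.62 and 3.15. No clone library reached the parental level, and the log2 differences were -1.88 ± 0.24, -1.57 ± 0.23, -1.09 ± 0.23 and -2.04 ± 0.24 (SE; edgeR adjusted p 0.000211, 0.000387, 0.00255 and 0.000132). These calls held in every alternative. The PAX3-FOXO1-FKBP time-course line, which carries the tag as well, held 9.19 CPM in DMSO, and the FOXO1-FKBP line 3.99 CPM, in tables that were normalised apart from the clones.

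FZD8 and FZD4 were lower in some clones. FZD8 stood at 46.4 and 48.5 CPM in parental libraries, with clone 4 at 47.2 and 45.6, clone 10 at 23.0 and 22.4, clone 11 at 38.5 and 41.4, and clone 12 at 21.2 and 18.1. Clones 10 and 12 differed from parental by -1.06 ± 0.14 and -1.27 ± 0.14 (log2, SE; edgeR adjusted p 0.000182 and 8.1e-05), and clone 4 overlapped with it. FZD4 stood at 11.8 and 11.1 CPM in parental libraries and was called only in clone 10, at 6.57 and 5.74 CPM (-0.89 ± 0.21, edgeR adjusted p 0.00543).

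FZD2 and FZD7, a related pair of receptors, were higher in clones 10 and 12. FZD2 stood at 34.2 and 36.4 CPM in parental libraries, with clone 4 at 32.2 and 40.5, clone 10 at 74.0 and 78.4, clone 11 at 39.9 and 58.6, and clone 12 at 59.0 and 70.9. The calls were 1.11 ± 0.19 in clone 10 and 0.88 ± 0.19 in clone 12 (log2, SE; edgeR adjusted p 0.000861 and 0.00307). FZD7, a receptor expressed by muscle satellite cells, stood at 13.8 and 13.7 CPM in parental libraries, with clone 4 at 12.8 and 8.84, clone 10 at 35.4 and 32.5, clone 11 at 23.8 and 19.4, and clone 12 at 28.9 and 23.5. All libraries of clones 10, 11 and 12 were above parental, by 1.30 ± 0.19, 0.65 ± 0.19 and 0.93 ± 0.19 (edgeR adjusted p 0.000386, 0.0156 and 0.0025). The clone 11 call was lost without either parental replicate or clone 11 replicate 1 (adjusted p up to 0.132).

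FZD1 and FZD5 were higher in 2 clones each, and FZD6 was lower in 3. FZD1 stood at 47.9 and 45.2 CPM in parental libraries and was higher in clone 4 at 102 and 83.2 CPM (1.00 ± 0.17, edgeR adjusted p 0.000909) and in clone 10 at 70.2 and 62.7 CPM (0.51 ± 0.17, adjusted p 0.0245). FZD5 went from 6.56 and 6.43 CPM to 10.9 and 8.62 CPM in clone 4 (0.59 ± 0.19, adjusted p 0.0276) and 13.1 and 10.3 CPM in clone 12 (0.85 ± 0.19, adjusted p 0.00404). FZD6 was lower than its parental 3.18 and 3.74 CPM at 1.39 and 1.67 CPM in clone 10, with clone 11 at 2.03 and 1.30, and clone 12 at 1.31 and 1.26, by -1.18 ± 0.29, -1.03 ± 0.29 and -1.43 ± 0.30 (edgeR adjusted p 0.00631, 0.0122 and 0.0027). The FZD1 call in clone 10 was lost without any 1 library of parental cells, clone 10 or clone 12 (adjusted p 0.0515 to 0.141). The FZD5 call in clone 4 was lost without clone 4 replicate 1 (0.191), either parental replicate (0.12 and 0.14) or clone 10 replicate 2 (0.0504) and with no low-count filter (0.057), and that in clone 12 without its library 1 (0.0577). The FZD6 calls in clones 10 and 11 were lost without parental replicate 2 (0.0589 and 0.0949), without clone 10 replicate 1 (0.0551) and without clone 11 replicate 2 (0.0555).

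LRP5 was higher in clone 4, at 331 and 295 CPM against 147 and 148 CPM in parental libraries. The difference was 1.09 ± 0.17 (log2, SE; edgeR adjusted p 0.000582), and the other clones held 137 to 197 CPM with no call. LRP6 stood at 30.3 and 31.3 CPM in parental libraries, with clone 4 at 64.0 and 36.6, and clone 11 at 16.8 and 10.5. It was lower in clone 11 by -1.16 ± 0.27 (edgeR adjusted p 0.00455). Its clone 4 libraries were far apart, and the call there (0.71 ± 0.26, adjusted p 0.0434) was lost without clone 4 replicate 1 (0.5), either parental replicate (0.155 and 0.135), clone 10 replicate 2 (0.061) or either clone 12 library (0.0785 and 0.0786), and with DESeq2 size factors (0.0508).

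**Figure D4:**
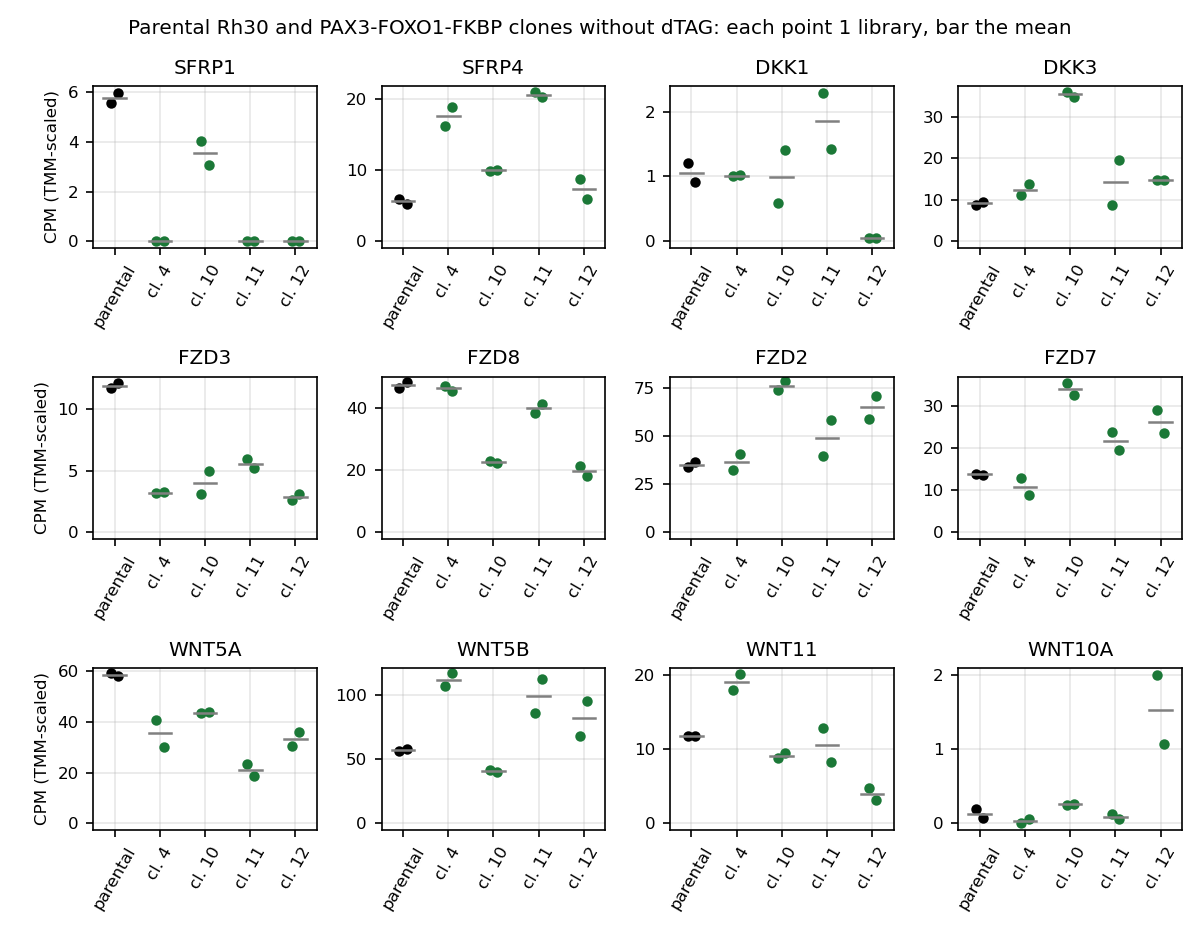
CPM of 12 members in parental Rh30 (black) and in PAX3-FOXO1-FKBP clones 4, 10, 11 and 12 (green) without dTAG, on linear axes. Each point is 1 library and each bar the mean of 2. SFRP1 is at 0 in clones 4, 11 and 12, DKK3 is high in clone 10 at 36.0 and 34.8 CPM, and FZD3 is lower than parental in every clone library.

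Ligands differed between clones in both directions. WNT5B stood at 56.3 and 58.1 CPM in parental libraries, with clone 4 at 107 and 117, clone 10 at 41.5 and 40.1, clone 11 at 85.8 and 112, and clone 12 at 67.8 and 95.4. It was higher in clones 4, 11 and 12 and lower in clone 10, by 0.97 ± 0.18, 0.79 ± 0.18, 0.51 ± 0.18 and -0.49 ± 0.18 (log2, SE; edgeR adjusted p 0.0014, 0.00368, 0.0298 and 0.0391). The clone 10 call was lost without either parental or either clone 10 replicate (adjusted p 0.113 to 0.147), and that in clone 11 without its replicate 2 (0.066). The clone 12 call was lost without its library 2 (0.461), either parental replicate (0.136 and 0.108) or clone 10 replicate 2 (0.0596). WNT5A was lower, from 59.0 and 57.8 CPM in parental libraries to 40.8 and 30.1 in clone 4, with clone 10 at 43.2 and 43.6, clone 11 at 23.5 and 18.6, and clone 12 at 30.3 and 36.1. All 8 clone libraries lay below parental, and the differences of -0.72 ± 0.18 in clone 4, -1.47 ± 0.18 in clone 11 and -0.81 ± 0.18 in clone 12 were called (edgeR adjusted p 0.00661, 0.000173 and 0.00312).

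WNT11 stood at 11.8 and 11.7 CPM in parental libraries, with clone 4 at 17.9 and 20.1, clone 10 at 8.76 and 9.49, clone 11 at 12.9 and 8.34, and clone 12 at 4.73 and 3.20. Clone 12 was lower by -1.57 ± 0.25 and clone 4 higher by 0.69 ± 0.22 (log2, SE; edgeR adjusted p 0.000506 and 0.0254), the latter lost without either parental replicate or clone 4 replicate 2 (up to 0.118). The sum of 10 epithelial markers was 122 and 155 CPM in clone 4 and 54.6 and 56.2 CPM in clone 10, against 4.79 to 8.03 CPM elsewhere. Genes at 10 or more reads numbered 3 and 4 in clone 4, as in the parental libraries. Of the 4 tested, those called in clone 4 were KRT18 and KRT8, higher by 9.35 and 5.53 (log2, edgeR adjusted p 7.4e-07 and 1.7e-06). In clone 10 they were KRT18, KRT8 and CLDN4, higher by 8.72, 2.25 and 2.23. In both clone 4 libraries KRT5, KRT14, KRT19 and ESRP1 were at 0 reads, and the part of these markers in the clone 4 differences was not tested. Muscle differentiation genes summed to 3426 to 5392 CPM in the clones and to 2123 and 2128 CPM in parental libraries, and their part in the clone differences was not tested either.

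Clone 12 was the clone with the most WNT10A and WNT10B, ligands that signal through beta-catenin. WNT10A had 5 and 2 reads in parental libraries, 0 to 6 in clones 4, 10 and 11, and 35 and 22 in clone 12 (3.54 ± 0.59, log2, SE; edgeR adjusted p 0.000732). WNT10B stood at 4.43 and 4.07 CPM in parental libraries, 3.61 to 6.78 in clones 4, 10 and 11, and 8.27 and 11.8 in clone 12 (1.24 ± 0.26, adjusted p 0.00277). WNT6 had 9 and 7 reads in parental libraries, with clone 11 at 12 and 32, and clone 12 at 13 and 24, with differences of 2.02 ± 0.65 and 1.73 ± 0.66 (edgeR adjusted p 0.0235 and 0.0474). Both WNT6 calls were lost without either parental replicate, that in clone 11 also without its replicate 2, and that in clone 12 also without any 1 library of clones 10 and 12, with DESeq2 size factors or by DESeq2's test (up to 0.399 and 0.261).

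WNT9A, WNT4 and WNT3 were each called in 2 clones. WNT9A had 28 and 30 reads in parental libraries, with clone 10 at 89 and 39, and clone 12 at 54 and 37, called at 1.49 ± 0.40 and 1.22 ± 0.41 (log2, SE; edgeR adjusted p 0.0103 and 0.0278). Clones 4 and 11 held 8 to 28 reads of it. WNT4 had 35 and 27 reads in parental libraries, with clone 10 at 99 and 40, and clone 11 at 11 and 3, called at 1.5 ± 0.42 and -1.69 ± 0.54 (adjusted p 0.0116 and 0.0224). WNT3 stood at 4.17 and 3.33 CPM in parental libraries, with clone 4 at 7.52 and 4.93, and clone 11 at 5.35 and 7.29, called at 0.73 ± 0.27 and 0.75 ± 0.27 (edgeR adjusted p 0.0457 and 0.0403). All 6 calls depended on single libraries. Those of WNT9A were lost without either parental replicate, clone 10 replicate 1 (clone 10 call, adjusted p up to 0.127) or clone 12 library 1 (clone 12 call, up to 0.258). The WNT4 call in clone 10 was lost without its replicate 1 or parental replicate 2 (0.158 and 0.103), and that in clone 11 without its replicate 2 or parental replicate 1 (0.123 and 0.117). Both WNT3 calls were lost without either parental replicate, clone 10 replicate 2 or either clone 12 library, with DESeq2 size factors and by DESeq2's test. The WNT3 call in clone 4 was also lost without its replicate 1 (0.366, the highest), without either clone 11 replicate and with the replicate block (0.0568), and that in clone 11 without its replicate 2 (0.297, the highest).

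AXIN2 stood at 9.70 and 9.86 CPM in parental libraries, with clone 4 at 13.4 and 8.09, clone 10 at 9.73 and 6.62, clone 11 at 6.30 and 5.37, and clone 12 at 7.13 and 4.50. It was called in clone 12 alone, lower by -0.76 ± 0.29 (log2, SE; edgeR adjusted p 0.049), and this call was lost without either parental replicate or clone 12 library 2 (up to 0.251). Clone 11 lay at similar levels with no call.

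Beside the members, 6 lists of Wnt pathway genes were counted under dTAG. The lists are not separate from the members or from each other. The member DKK1 is a listed beta-catenin responsive gene, and AXIN2 is listed too. TCF7 and LEF1 are in both the TCF/LEF and the responsive list, and NOTUM in both the secretion and the responsive list. In the PAX3-FOXO1-FKBP line edgeR called 1 higher and 1 lower of 11 secretion and extracellular genes, 1 higher and 1 lower of 11 other receptors and receptor-turnover genes, and 2 higher of 11 planar cell polarity genes, against 4.54% of all genes. Of 20 cytoplasmic signalling genes and 13 TCF/LEF factors and co-regulators 0 were called. Of 11 beta-catenin responsive genes 1 was called, LGR5, which is in the receptor list as well. The median fitted changes were 0.13, 0.05, 0.05, -0.11, -0.28 and -0.16 (log2) in the order of the lists, beside 0.01 for all genes. In the FOXO1-FKBP line 0 genes of these lists were called.

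LGR5, a receptor for R-spondins, fell from 17.0 CPM in DMSO to 6.93, 3.16, 2.83 and 1.15 CPM in the PAX3-FOXO1-FKBP line, and the FOXO1-FKBP line held 6.79, 5.32, 4.11, 7.89 and 3.58 CPM. The fitted change was -3.65 (edgeR adjusted p 0.00254), with a difference between the lines of -3.29 (adjusted p 0.0343). KREMEN2, a DKK receptor that with DKK1 removes LRP6 from the cell surface, rose from 20.6 CPM to 30.2, 39.6, 71.3 and 87.5 CPM, while the other line held 38.0 to 49.99 CPM. Its fitted change was 2.18 (edgeR adjusted p 0.000933) and the difference 1.79 (adjusted p 0.00101).

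PRICKLE1, a core planar cell polarity protein, rose from 9.95 CPM to 11.7, 19.2, 31.3 and 42.8 CPM (fitted change 2.25, edgeR adjusted p 0.00138; difference between the lines 2.22, adjusted p 0.0226). The FOXO1-FKBP line held 0.470 to 0.565 CPM of it. Its relative PRICKLE2 rose from 0.644 to 2.31 CPM (1.78, adjusted p 0.0474). GPC3, a glypican that binds Wnts, fell from 174 to 97.0 CPM (-0.97, adjusted p 0.0381), and TINAGL1, a secreted matrix protein, rose from 0.0905 to 0.950 CPM (2.89, adjusted p 0.0417) on few counts. The difference between the lines passed for LGR5, KREMEN2 and PRICKLE1 and for no other gene of these lists.

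In the clones, the same lists held calls in both directions, to be read against the 47.4% to 52.6% of all genes called. Higher and lower calls were 3 and 2, 6 and 0, 2 and 2, and 4 and 3 of 11 secretion and extracellular genes in clones 4, 10, 11 and 12. Among 13 TCF/LEF factors and co-regulators they were 4 and 1, 4 and 0, 0 and 7, and 1 and 5. The counts were 3 and 2, 5 and 1, 1 and 3, and 2 and 2 of 11 other receptors and turnover genes, and 2 and 4, 7 and 1, 2 and 3, and 5 and 1 of 11 planar cell polarity genes. Of 20 cytoplasmic signalling genes, 7 and 3, 9 and 1, 7 and 6, and 6 and 5 were called, and of 11 beta-catenin responsive genes 1 and 1, 3 and 1, 0 and 2, and 2 and 4. The 2 higher calls of responsive genes in clone 12 were TNFRSF19 and NOTUM, by 2.35 and 1.85 (log2, edgeR adjusted p 0.000194 and 0.000594). The lower calls of responsive genes there include the member DKK1. LEF1 was lower in clones 11 and 12 by -1.28 and -0.70 (log2; edgeR adjusted p 0.000122 and 0.00188), and TCF7 was higher in clones 4 and 10 by 1.08 and 1.07 (adjusted p 0.00192 and 0.00174) and lower in clone 12 by -1.99 (adjusted p 0.000162). RSPO2, an R-spondin ligand, was higher in clones 4, 10, 11 and 12 by 2.55, 1.84, 1.29 and 1.65 (adjusted p 0.000733, 0.00437, 0.0295 and 0.00826). PRICKLE1 was lower in clones 4 and 11 by -3.60 and -5.45 (adjusted p 0.000237 and 0.00012).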

How the data were processed

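Build hg19 and the tools Trimmomatic 0.32, Bowtie2 and Cuffdiff 2.1.1 are listed per the submitters' processing notes. What each tool did, the annotation and how the clones were counted: not given in the sources used here. For the time courses the authors deposited estimated counts, 1 pooled column per condition per the file headers, of which 73.6% are not whole. The clone table holds raw counts deposited by the authors, 1 column per library. The clone 12 columns are numbered otherwise than in the labels and were used as its 2 libraries without number. Members, lists, tests and alternatives were chosen with earlier results of these data known.

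Clones were tested by the quasi-likelihood F test of edgeR 4.0.16 under R 4.3.3, fitting the 10 libraries together as 5 group means, with TMM factors, filterByExpr (minimum count 10) and 5 residual degrees of freedom. Time courses were rounded to whole counts and tested for an edgeR slope on log2(hours + 1), with DMSO at 0 h (3 residual degrees of freedom per line, 6 for the difference between lines). A slope is given as the fitted log2 change over 72 h. A call is an adjusted p (Benjamini-Hochberg, across every gene tested) under 0.05. SEs are the log2 change divided by the square root of F, an approximation. Changes at single times used a prior count of 2, and the rule of size asked for 2-fold and a mean of 50 normalised counts. Genes with an exact 0 beside columns of at least 10 counts were left out of the time-course fits as failed estimates (41 and 9 in the PAX3-FOXO1-FKBP and FOXO1-FKBP lines). A list of 14 members under 10 counts is named only. Given in full are members called in any test or past the rule of size, and AXIN2. From the other lists, up to 4 called genes per comparison by lowest p could be named. The lists are 6 of Wnt pathway genes and 6 of markers (B lineage and leukocyte, fibroblast, epithelial, endothelial, rhabdomyosarcoma and myoblast, muscle differentiation). CPM are counts per 1000000 of the TMM-scaled total. TMM factors for CPM were taken separately in each time course and in the clone libraries, so levels of these sets share no common TMM scale. The test of the difference in slope normalised both time courses together. Lengths are those of the longest coding transcript per symbol in GENCODE v29, which is on another build than the counts, and promoters came from RefSeq by symbol. Alternatives were DESeq2 1.42.0 (size factors and test), no low-count filter, library totals, a prior count of 0.5, a mean of at least 10, a correction for GC and length, the order of columns in place of hours, a replicate block, and leaving out each library or column. The tests were first run on simulated data.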

Additional observations from a re-analysis of the deposited data

Results flagged for a closer look

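The slopes of 2 members under dTAG differed between the lines by the test of the difference itself. For WNT5B the slope in the PAX3-FOXO1-FKBP line minus that in the FOXO1-FKBP line was -1.547 (log2 over 0 to 72 h, edgeR adjusted p 0.00825). For WNT11 it was -1.825 (adjusted p 0.0448). In DMSO the lines held 85.2 and 99.8 CPM of WNT5B and 11.8 and 2.49 CPM of WNT11, so WNT11 started from unequal levels. The columns are pooled, and these p-values hold no replicate error.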

How the results depend on the processing

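Of 50 calls of members in clones, all kept their direction in every alternative run for them. With a replicate block over parental cells and clones 4, 10 and 11, edgeR called 12, 14 and 13 members in these clones and 19 for any difference, and 33 of 34 calls held. Deviations of same-numbered samples correlated at 0.0237, 0.0187 and 0.00869 between parental cells and clones 4, 10 and 11. Summed over the cytoplasmic signalling genes, the parental libraries stood at 1787 and 1792 CPM. The same sums were 2284 and 2093, 2456 and 2358, and 2082 and 2151 CPM in clones 4, 10 and 11. In clone 12 they were 1911 and 1915 CPM. Such sums do not measure how far single genes deviate, so whether the numbers pair parental samples with clones stays unknown. Among clones 4, 10 and 11 the deviations correlated at 0.364, 0.157 and 0.147, so same-numbered clone libraries shared deviations. Leaving out 1 library moved the members called to 7 to 11 in clone 4, 6 to 14 in clone 10, 6 to 13 in clone 11 and 12 to 17 in clone 12. The slope in the PAX3-FOXO1-FKBP line was called for 6 members by DESeq2 and for 1 to 5 with a column left out, and in the FOXO1-FKBP line for 0 to 1. The difference in slope was called for 1 with the order of columns in place of hours and for 0 to 3 with a column of each line left out. At least 2-fold in the PAX3-FOXO1-FKBP line were 0 members at 2 h and 2 at 6 h with library totals, and 2, 4, 6 and 8 at 2, 6, 24 and 72 h with a mean of at least 10. The causes were not tested, except that a lower mean admits more genes. Low counts limit WNT6, WNT9A, WNT10A, DKK1 and DKK2, and WNT9A, with a mean of 53.6 normalised counts, lies just above the minimum of 50.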
